A study of Rattus norvegicus with 18 samples.

Results

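Small RNAs were compared between all rats that had received a corticospinal injury and a muscle vector and rats that had received neither. The 12 injured libraries came from 6 bPYX+GFP and 6 bPYX+NT3 rats, and the 6 others from naive rats, so that all 18 libraries of the series were used. Grouping was by the labels of each rat, without use of any measured value. The question was which microRNAs (miRNAs) of the dorsal root ganglia differ after injury plus vector whichever transgene is carried. Of 753 rat miRNAs listed, 572 had a count in some library, and the 373 counted over 10 times in 6 or more of the 18 libraries were tested.

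All rats were adult and of the lister hooded strain. The bPYX lesion, a bilateral pyramidotomy, cuts the corticospinal axons where they run through the brainstem. The vector, AAV1, is an adeno-associated virus that was given into the muscles that flex 1 forelimb on the day after the lesion. It carried a CMV promoter, active in many cell types, and the coding sequence of green fluorescent protein (GFP) or of human neurotrophin-3 (NT3). Naive rats were unoperated and received no treatment, and cervical ganglia C6-8 of the injected side were taken from the injured rats 10 weeks after the lesion. Each library was made from the combined C6-8 ganglia of 1 rat. No group had injury without vector, vector without injury, or sham surgery, so injury, surgery and vector cannot be told apart here. Injured rats also went through later behavioural, electrophysiological and tracing procedures. The paper's immunolabelling included traced neurons of naive rats as well. The sources used here do not say whether the sequenced naive rats went through any of these procedures.

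A dorsal root ganglion holds the cell bodies of the sensory neurons that supply skin and muscle, with satellite glia, Schwann cells, vessels and connective tissue. The corticospinal tract does not pass through it. A miRNA is cut from a hairpin precursor whose 5p and 3p arms can each be loaded into an Argonaute protein, and pairing of its seed, bases 2 to 8, with a messenger RNA lowers the translation or stability of that messenger. Many miRNAs lie in introns of protein-coding genes or in clusters made from a shared primary transcript. The largest such cluster here is the imprinted Dlk1-Dio3 locus, whose miRNAs are transcribed from the maternal chromosome and are abundant in neurons.

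6 of 373 miRNAs differed between injured and naive rats at a Benjamini-Hochberg adjusted p under 0.05 with edgeR's quasi-likelihood test (1.61% of those tested). miR-496-3p, miR-379-3p and miR-30e-3p were higher in injured rats, and miR-361-3p, miR-381-3p and miR-370-3p were lower. miR-370-3p, miR-379-3p, miR-381-3p and miR-496-3p are products of the imprinted locus on chromosome 6. The changes were small, between 1.21- and 1.63-fold in either direction.

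Mature sequences of 5 of the 6 are shown because the seed sets which messengers each can pair with, and no seed is shared among them. They are RefSeq sequences of assembly GRCr8, 5′ to 3′, with the seed in capitals.
miR-361-3p: cCCCCAGGugugauucugauucgu
miR-381-3p: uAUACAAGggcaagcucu
miR-496-3p: aGUAUUACauggccaaucucc
miR-370-3p: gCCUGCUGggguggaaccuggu
miR-379-3p: cUAUGUAAcaugguccacuaac
On that assembly miR-361-3p lies at chrX:82438466-82438489 on the minus strand, within Chm, the gene of a Rab escort protein. miR-370-3p lies at chr6:134354538-134354559, miR-379-3p at chr6:134543496-134543517, miR-381-3p at chr6:134562422-134562439 and miR-496-3p at chr6:134575097-134575117, all on the plus strand and within long non-coding transcripts. miR-30e-3p comes from a precursor within Nfyc, a subunit gene of the NF-Y transcription factor.

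miR-361-3p was the clearest difference. Its level ran from 648 to 788 counts per M (CPM, after TMM scaling; M is the SI prefix mega) in naive rats, with a median of 686, and from 486 to 626 CPM in injured rats, with a median of 558. Every one of the 12 injured libraries lay below the lowest naive library, and this was the only one of 373 miRNAs (0.268%) without overlap between the groups. The means were 696 ± 52.6 (SD, n = 6) and 553 ± 42.6 CPM (SD, n = 12), a log2 change of -0.33 ± 0.06 (SE; adjusted p by edgeR = 0.0085). The vectors gave nearly the same value, -0.32 for bPYX+GFP and -0.35 for bPYX+NT3, each against the same naive rats. The adjusted p was 0.052 without naive replicate 3, the naive library with the highest level, and under 0.05 without any other library.

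miR-381-3p and miR-370-3p also fell. The naive libraries had 1875 to 2448 CPM of miR-381-3p (median 2009), and the injured libraries 1502 to 1942 (median 1709). 10 of 12 injured libraries lay below all naive ones. The log2 fold change was -0.28 ± 0.07 (SE; adjusted p by edgeR = 0.0389). miR-370-3p ran from 1704 to 2339 CPM in naive (median 1900) and from 1146 to 1772 CPM in injured rats (median 1513), with 11 of 12 injured libraries below the lowest naive library. Its log2 fold change was -0.37 ± 0.09 (SE; adjusted p by edgeR = 0.0389). In both, naive replicate 3 had the highest level of the series.

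The 3 higher miRNAs were of low to moderate abundance. miR-496-3p had 24.9 to 34.6 CPM in naive (median 29.4) and 29.0 to 49.2 CPM in injured rats (median 41.4). 11 of 12 injured libraries exceeded every naive one, and bPYX+NT3 replicate 4 did not. The log2 fold change was 0.43 ± 0.10 (SE; adjusted p by edgeR = 0.0389). miR-379-3p showed the largest change of the 6, from 28.9 to 44.3 CPM in naive (median 38.8) to 31.2 to 93.8 CPM in injured rats (median 60.8). All 6 bPYX+GFP libraries and 4 of 6 bPYX+NT3 libraries lay above the naive range, and the log2 fold change was 0.71 ± 0.17 (SE; adjusted p by edgeR = 0.0423). miR-30e-3p had 274 to 349 CPM in naive (median 298) and 299 to 458 CPM in injured rats (median 385), with 9 of 12 injured libraries above the highest naive library. Its log2 fold change was 0.33 ± 0.08 (SE; adjusted p by edgeR = 0.0497), at the edge of the threshold.

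**Figure D1:**
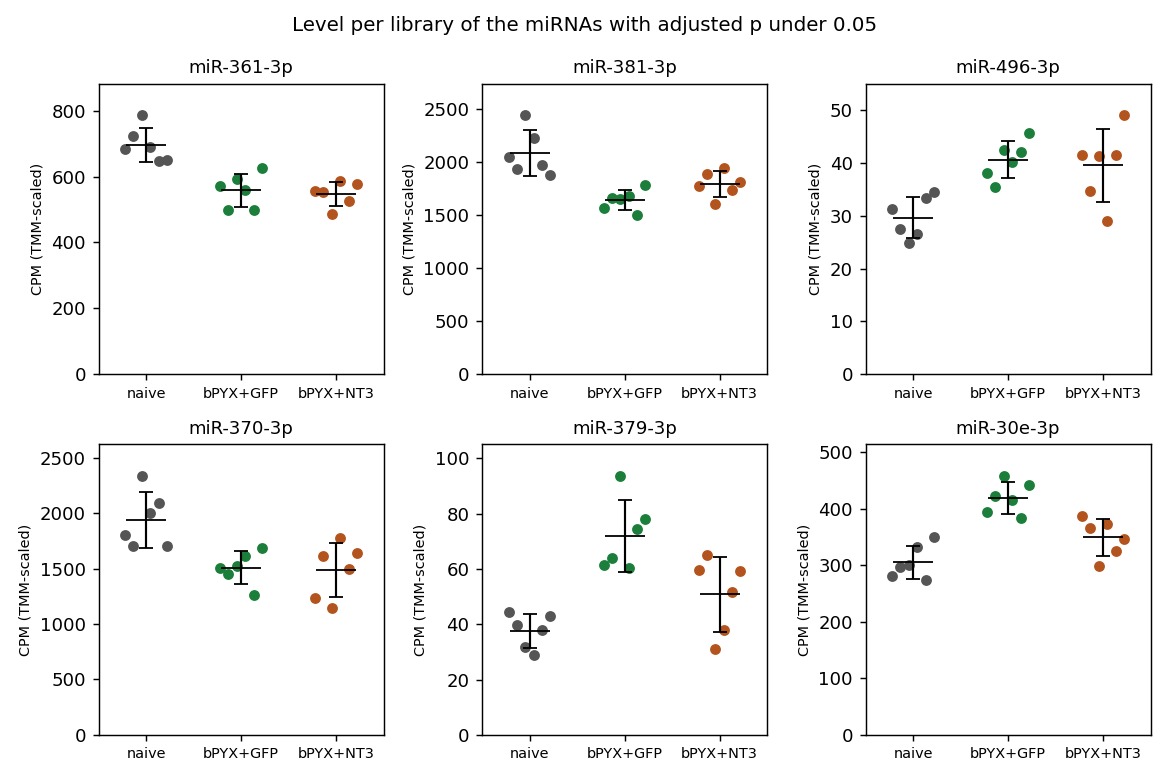
Level of each of the 6 called miRNAs, in CPM after TMM scaling, by group. Points are libraries (6 per group), horizontal lines are means and bars are SD; miR-361-3p is the one panel in which all injured libraries, at most 626 CPM, lie below all naive libraries, at least 648 CPM.

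The number of calls rested on single libraries. Leaving out 1 library at a time gave between 0 and 9 calls, with 0 when naive replicate 3 was left out. A single call was left for each of naive replicates 1, 4 and 5, bPYX+GFP replicates 1, 2, 5 and 6, and bPYX+NT3 replicates 1 and 6, and that call was miR-361-3p each time. There were 9 for bPYX+NT3 replicate 3 or replicate 4. The log2 fold changes themselves kept their sign in these fits, lying between -0.31 and -0.23 for miR-381-3p, -0.41 and -0.31 for miR-370-3p, 0.39 and 0.48 for miR-496-3p, 0.64 and 0.77 for miR-379-3p, and 0.31 and 0.37 for miR-30e-3p. Naive replicate 3 was the highest naive library for 9 of the 16 lower miRNAs among the 24 described here, and for 85 of all 373.

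Without adjustment a wider set of 70 of 373 miRNAs (18.8%) passed 0.05, and 30 of these were higher and 40 lower in injured rats. The number that pass this threshold when no miRNA differs averages 18.65. Differences were small throughout. The median absolute log2 fold change was 0.12 over all 373, 0.23 over the 30 higher miRNAs and 0.26 over the 40 lower. Among those with a RefSeq sequence, median GC content was 42.9% in 28 higher miRNAs, 50.0% in 35 lower and 47.8% in all 350. Across those 350 the Spearman correlation of GC content with log2 fold change was -0.09, and whether base composition had a part in the changes was not tested.

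**Figure D2:**
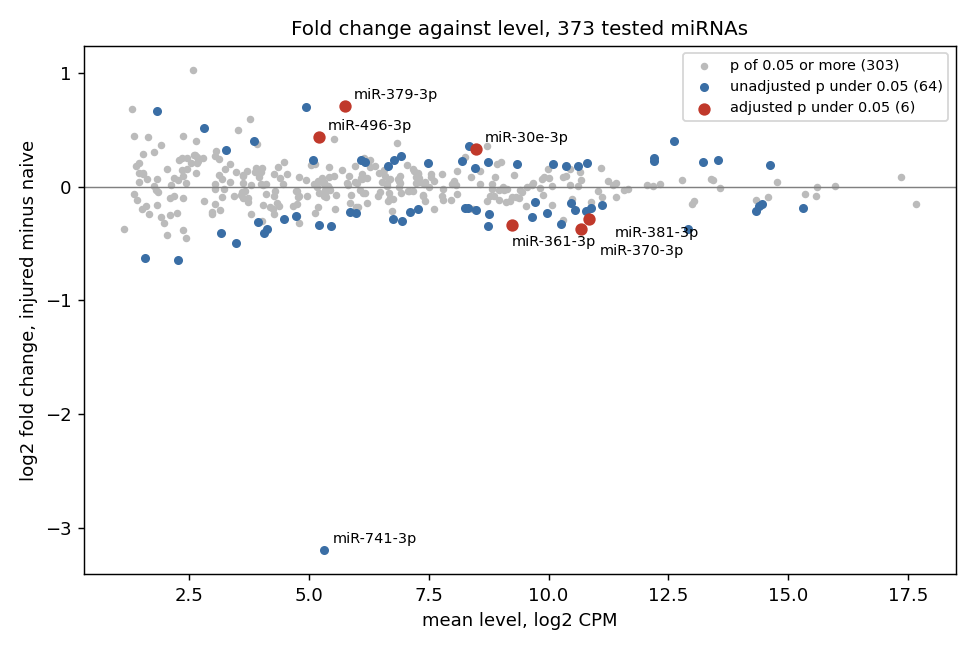
Log2 fold change of injured minus naive against mean level (log2 CPM) for the 373 tested miRNAs, each a point. Red marks the 6 with adjusted p under 0.05, blue the other 64 with unadjusted p under 0.05; the called miRNAs lie between -0.37 and 0.71, and miR-741-3p lies alone at -3.20.

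The change of greatest size, in miR-741-3p, rested on 1 rat. This X-linked miRNA had 564 CPM in naive replicate 1, against a naive median of 4.93 CPM and an injured median of 1.96 CPM. Its log2 fold change was -3.20 ± 1.11 (SE; adjusted p by edgeR = 0.113) and turned to 1.51 without that rat. Without bPYX+GFP replicate 4, the highest injured library at 94.2 CPM, it was -4.95 and passed (edgeR adjusted p = 0.0195). It was the 1 tested member of 23 listed miRNAs of its X-linked cluster. Summed over the 23, the level reached 1020 CPM in naive rats (median 8.26) and 198 CPM in injured rats (median 3.48). Untested members of the cluster thus had counts as well.

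The 18 miRNAs next in order of p after the 6 did not pass the adjusted threshold in the pooled comparison, and their values are given as differences only. The first was miR-676, within Eda, the X-linked gene of ectodysplasin. It had 1092 to 1622 CPM in naive (median 1407) and 840.5 to 1367 CPM in injured rats (median 1108). The groups overlapped, with 4 of 12 injured libraries below the naive range, and the log2 fold change was -0.33 ± 0.09 (SE; adjusted p by edgeR = 0.0599). It passed without naive replicate 2, bPYX+NT3 replicate 3 or bPYX+NT3 replicate 4.

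Both arms of miR-146b, of a family that represses Traf6 and Irak1 in inflammatory signalling, were lower. miR-146b-5p had 7041 to 11745 CPM in naive (median 8556) and 5382 to 9024 CPM in injured rats (median 6884). The difference was greater in bPYX+GFP, at a log2 change of -0.53, than in bPYX+NT3, at -0.23, and the pooled value was -0.37 ± 0.11 (SE; adjusted p by edgeR = 0.098). miR-146b-3p had 13.3 ± 1.61 CPM in naive (SD, n = 6) and 9.40 ± 2.34 CPM in injured rats (SD, n = 12), a log2 change of -0.50 ± 0.14 (SE). Its relative miR-146a-5p, which has the same seed, was at 0.17 (log2 fold change; edgeR adjusted p = 0.371).

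The sequences of the miR-146b arms are shown because the seeds in capitals differ between arms of 1 hairpin.
miR-146b-5p: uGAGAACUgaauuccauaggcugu
miR-146b-3p: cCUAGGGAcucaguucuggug

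Products of miR-363 and miR-20b, neighbours in the X-linked miR-106a to miR-363 cluster, which is related by descent to the miR-17-92 cluster, were lower without passing the adjusted test. miR-363-5p had 4.82 to 8.52 CPM in naive (median 5.45) and 2.18 to 6.30 CPM in injured rats (median 3.51), with 11 of 12 injured libraries below the naive range. miR-363-3p had 954 to 1334 CPM in naive (median 1089) and 774 to 1063 CPM in injured rats (median 940). miR-20b-3p had 39.6 to 59.2 CPM in naive (median 52.7) and 31.6 to 52.6 CPM in injured rats (median 40.0). The log2 fold changes were -0.64 ± 0.19, -0.23 ± 0.07 and -0.34 ± 0.11 (SE) in that order. The edgeR adjusted p = 0.098 for miR-363-5p and 0.104 for the others. miR-20b-5p, the remaining tested arm of these hairpins, was at -0.21 ± 0.10 (SE; edgeR adjusted p = 0.272). Of other products of the cluster, miR-17-2-3p, from the miR-106a gene, was at -0.18 ± 0.11 (SE), and miR-92a-3p, which has a second gene elsewhere, at 0.01 ± 0.10 (SE; edgeR adjusted p = 0.378 and 0.978). In the list of 16 tested miRNAs of this and the related clusters, these were the 3 lower at an unadjusted p under 0.05, none was higher, a share near the 18.8% of all tested miRNAs, 7 of the 16 had a fold change above 0, and the list's median was -0.04 against 0.02 over all tested.

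Of the miR-363 and miR-20b hairpins, these arms are printed because their genes are neighbours on the minus strand of chromosome X and they are among the 24.
miR-363-5p: cGGGUGGAucacgaugcaauuu
miR-363-3p: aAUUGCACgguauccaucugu
miR-20b-3p: aCUGCAGUgugagcacuucugg
On GRCr8 they lie at chrX:137342830-137342851, chrX:137342788-137342808 and chrX:137343202-137343223.

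2 further miRNAs among the 24 belong to the imprinted locus and were higher. miR-770-5p, within the maternally expressed Meg3 transcript, had 15.7 to 28.0 CPM in naive (median 20.5) and 21.4 to 68.2 CPM in injured rats (median 30.4). Its log2 fold change was 0.70 ± 0.21 (SE; adjusted p by edgeR = 0.098), with 8 of 12 injured libraries above the naive range. miR-433-3p, whose hairpin is antisense to the Rtl1 coding gene, had 1407 to 1752 CPM in naive (median 1642) and 1647 to 2116 CPM in injured rats (median 1810), a log2 change of 0.21 ± 0.07 (SE; adjusted p by edgeR = 0.104). miR-667-5p of the same locus was lower, at 122 ± 21.1 CPM in naive (SD, n = 6) and 100 ± 12.0 CPM in injured rats (SD, n = 12), a log2 change of -0.29 ± 0.10 (SE; adjusted p by edgeR = 0.111).

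Abundant miRNAs were also among the 24. let-7g-5p, of the let-7 family that represses Lin28 and growth genes, had 23152 to 25643 CPM in naive and 19529 to 23901 CPM in injured rats. 11 of 12 injured libraries lay below the naive range, although the log2 fold change was only -0.15 ± 0.05 (SE; adjusted p by edgeR = 0.111). miR-125a-5p, of a family that also targets Lin28, had 9196 to 12189 CPM in naive and 10587 to 14288 CPM in injured rats, a log2 change of 0.23 ± 0.07 (SE; adjusted p by edgeR = 0.104). miR-26b-5p, within the phosphatase gene Ctdsp1, was higher by 0.25 ± 0.09 and miR-101b-3p, of a family that targets the histone methyltransferase Ezh2, by 0.20 ± 0.07 (log2, SE; edgeR adjusted p = 0.111 for each).

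The remaining members of the 24 were lower in injured rats. miR-181d-5p was at 334 ± 13.4 CPM in naive (SD, n = 6) and 293 ± 20.6 CPM in injured rats (SD, n = 12), with 11 of 12 injured libraries below the naive range and a log2 change of -0.19 ± 0.06 (SE; adjusted p by edgeR = 0.104). miR-455-5p, within the cartilage collagen gene Col27a1, was at -0.34 ± 0.12, miR-152-5p, within the coatomer gene Copz2, at -0.34 ± 0.11, miR-32-3p at -0.41 ± 0.13 and miR-344b-1-3p at -0.37 ± 0.12 (log2 fold change, SE; edgeR adjusted p from 0.104 to 0.111). In each of these 4 the naive and injured libraries overlapped. Tested other arms of the hairpins outside the imprinted locus did not pass, with miR-32-5p at 0.25 ± 0.14, let-7g-3p at 0.12 ± 0.21, miR-26b-3p at 0.09 ± 0.14, miR-455-3p at 0.09 ± 0.10, miR-125a-3p at 0.02 ± 0.14 and miR-152-3p at -0.08 ± 0.11 (log2 fold change, SE; edgeR adjusted p of at least 0.342).

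All 24 had the same direction with either vector. Against naive, 8 were higher and 16 lower in the bPYX+GFP and in the bPYX+NT3 rats alike. Both comparisons use the same 6 naive libraries and the 24 were chosen on the pooled difference, so the shared sign is a description. With each vector group set against naive in the fit with 3 groups, miR-361-3p was the 1 of the 6 called miRNAs that passed with both (edgeR adjusted p = 0.0181 with GFP and 0.0470 with NT3). miR-379-3p and miR-30e-3p passed with GFP (edgeR adjusted p = 0.00279 each) and not with NT3 (0.253 each), as did miR-381-3p (0.0124 and 0.174) and miR-496-3p (0.0414 and 0.144). miR-370-3p passed with neither (edgeR adjusted p = 0.0826 and 0.144). Among the rest of the 24, miR-146b-5p passed with GFP and not with NT3 (edgeR adjusted p = 0.0124 and 0.306). So did miR-146b-3p (0.0142 and 0.305) and miR-344b-1-3p (0.0310 and 0.343). Both miR-146b arms were also called for the average of the vector groups in that fit, though not in the main fit. Whether the vectors differ is tested by the direct comparison. In that comparison of bPYX+NT3 with bPYX+GFP, which naive libraries enter only through the scaling and the estimate of spread, 0 of 373 miRNAs passed edgeR's adjusted threshold of 0.05, the smallest adjusted p being 0.202. Without adjustment 40 (10.7%) passed, of which 23 were higher and 17 lower with NT3, and this number was 25 when bPYX+NT3 replicate 3 or replicate 5 was left out. edgeR's likelihood ratio test called 1 and DESeq2 called 4.

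5 of the 24 were among those 40. miR-379-3p was lower with NT3 than with GFP by a log2 change of -0.50 ± 0.16 (SE; edgeR adjusted p = 0.249), and miR-30e-3p by -0.26 ± 0.08 (SE; edgeR adjusted p = 0.207). miR-146b-5p, miR-146b-3p and miR-344b-1-3p were higher with NT3, by 0.30 ± 0.11, 0.38 ± 0.16 and 0.30 ± 0.13 on the log2 scale (SE; edgeR adjusted p of at least 0.334). In all 5 the bPYX+NT3 level lay between those of naive and bPYX+GFP. The other called miRNAs differed less between vectors, by -0.03 ± 0.07 for miR-361-3p, -0.02 for miR-370-3p, -0.04 for miR-496-3p and 0.13 for miR-381-3p (log2; edgeR adjusted p of at least 0.59).

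**Figure D3:**
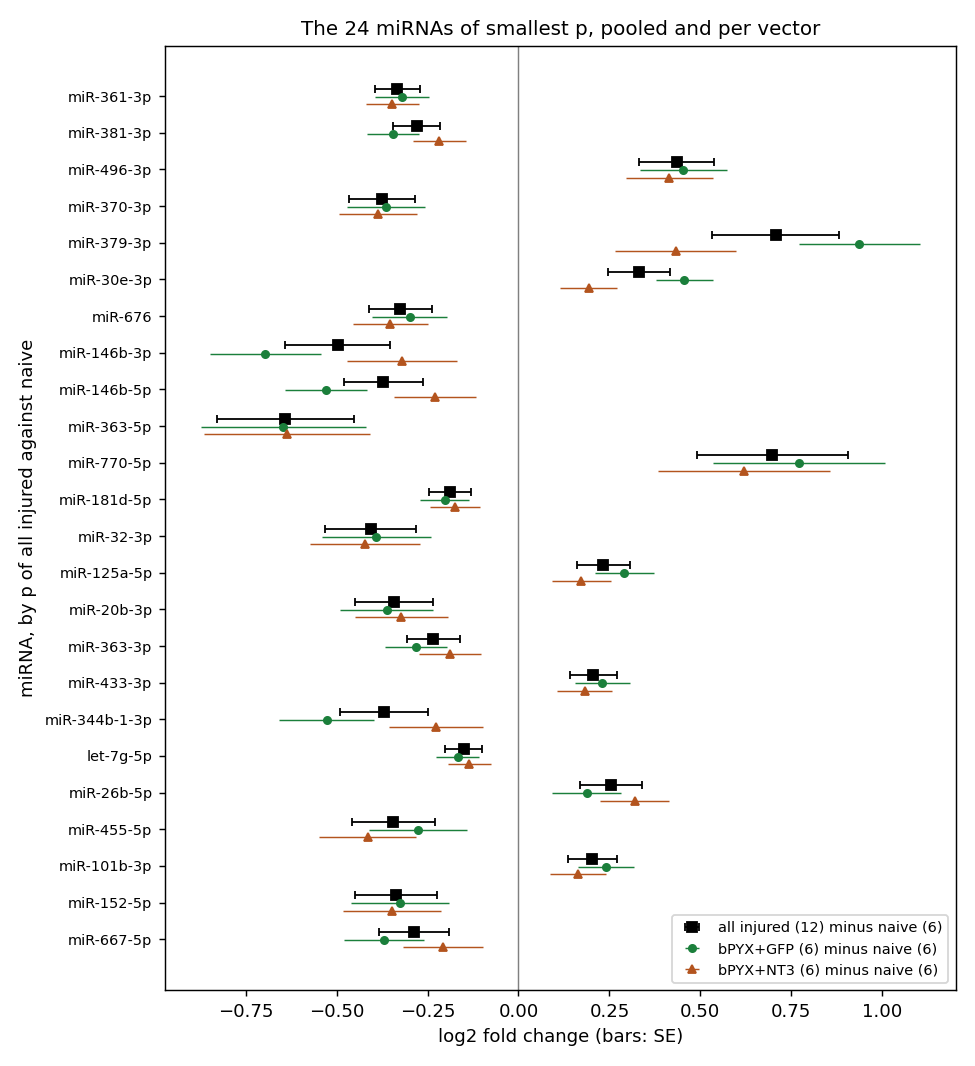
Log2 fold change against naive, with SE, of the 24 miRNAs of smallest p, for all injured rats together and for each vector group. Each of the 24 has the same sign in both vector groups; the gap between vectors is widest, relative to its SE, for miR-30e-3p and miR-379-3p.

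The imprinted locus was described across its length, because 4 of the 6 called miRNAs lie in it. 70 of its tested miRNAs, from 45 genes, had a RefSeq position and are described here. Tested products without one, such as miR-127-5p and miR-136-5p, were left out. Of the 70, 4 were called, 2 higher and 2 lower, where 1.61% were called over all tested miRNAs. At an unadjusted p under 0.05 there were 6 higher and 7 lower, a share close to the 18.8% over all tested miRNAs. The median log2 fold change was 0.03, close to the 0.02 of all tested miRNAs, and the range was -0.37 to 0.71. Products on either side of 0 occurred along the locus. miR-382-5p was at 0.18 and miR-369-3p at 0.23, while miR-300-3p was at -0.13, miR-541-5p at -0.18, miR-493-3p at -0.27 and miR-673-3p at -0.31 (log2 fold change; edgeR adjusted p from 0.132 to 0.258). Values were also close to 0 for the other arms of miR-379, miR-370, miR-496 and miR-770. miR-379-5p, at 4632 ± 699.8 CPM in naive rats (SD, n = 6), was at 0.01 ± 0.09, miR-370-5p at -0.03 ± 0.11, miR-496-5p at 0.06 ± 0.22 and miR-770-3p at 0.01 ± 0.10 (log2 fold change, SE). The partners of miR-433-3p and miR-667-5p had the opposite sign, miR-433-5p at -0.19 ± 0.11 and miR-667-3p at 0.05 ± 0.07 (SE; edgeR adjusted p = 0.360 and 0.764).

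**Figure D4:**
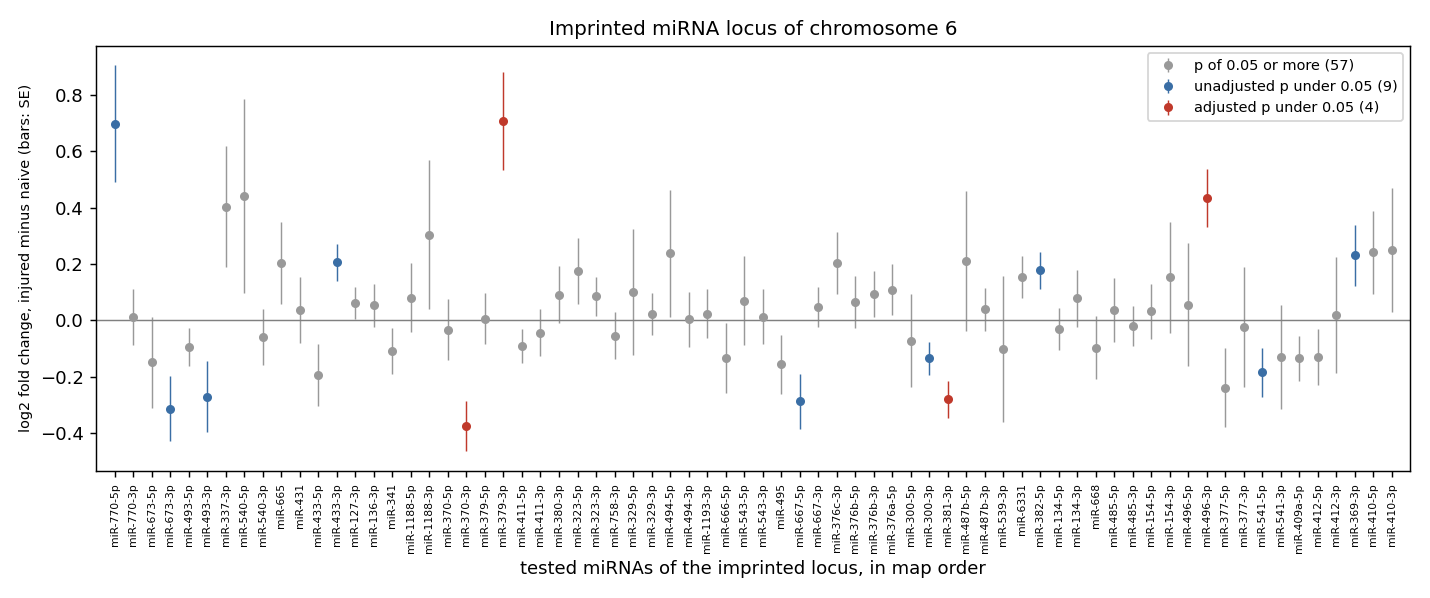
Log2 fold change of injured minus naive, with SE, for the 70 tested miRNAs of the imprinted locus on chromosome 6 that have a RefSeq position, in map order. Red marks the 4 called miRNAs and blue the other 9 with unadjusted p under 0.05; values lie on both sides of 0 along the locus, between -0.37 and 0.71.

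To compare the arms of 1 precursor directly, the ratio of 3p to 5p counts was compared within each library for the 114 precursors with both arms tested, a comparison added after the data had been seen. A ratio taken within a library needs no scaling between libraries. Using a two-sided exact permutation test over all assignments of the rats, 7 of 114 precursors (6.14%) had a Benjamini-Hochberg adjusted p under 0.05. The ratio moved toward the 3p arm in miR-221, miR-30a, miR-30e, miR-455 and miR-667, and toward the 5p arm in miR-361 and miR-3559.

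Among the 7, miR-361 shifted most. Its log2 ratio of 3p to 5p counts was 1.80 to 2.37 in naive (median 2.05) and 1.30 to 2.03 in injured rats (median 1.57). 11 of 12 injured libraries lay below the naive range, and bPYX+NT3 fell as far as bPYX+GFP, with means of 1.57 and 1.53. The difference was -0.55 (exact permutation adjusted p = 0.0123). The arms moved in opposite directions, since miR-361-5p was higher in injured rats, at 188 ± 16.9 (SD, n = 12) against 163 ± 18.8 CPM (SD, n = 6), a log2 change of 0.21 ± 0.08 (SE; adjusted p by edgeR = 0.135).

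The ratio rose in 2 of the 3 precursors of the miR-30 family with both arms tested, and in the third, miR-30d, the difference was -0.02 (exact permutation adjusted p = 0.936). In miR-30a the ratio rose from -5.50 to -4.997 in naive (median -5.25) to -5.14 to -4.63 in injured rats (median -4.79), a difference of 0.42 (exact permutation adjusted p = 0.0123). In miR-30e it rose from -2.93 to -2.44 in naive (median -2.74) to -2.59 to -1.95 in injured rats (median -2.23), a difference of 0.46 (exact permutation adjusted p = 0.0197). The ratio lay above the naive range in 11 of 12 injured libraries for miR-30a and in 9 of 12 for miR-30e. By level, miR-30a-3p was at 0.20 and miR-30a-5p at -0.22, and miR-30e-5p at -0.14 (log2 fold change; edgeR adjusted p of 0.132, 0.161 and 0.294).

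miR-221, which with miR-222 is raised in ganglia after peripheral nerve cut, had a log2 ratio of 2.55 to 2.94 in naive (median 2.82) and 2.76 to 3.60 in injured rats (median 3.21). The difference was 0.42 (exact permutation adjusted p = 0.0123), with 11 of 12 injured libraries above the naive range. By level miR-221-3p was at 0.20 and miR-221-5p at -0.22 (log2 fold change; edgeR adjusted p of 0.270 and 0.146). The other shifts were 0.43 in miR-455 (exact permutation adjusted p = 0.0197), 0.33 in miR-667 (adjusted p = 0.0456) and -0.29 in miR-3559 (adjusted p = 0.0225), whose gene lies within Zdhhc15. Of the 6 hairpins of the imprinted locus whose arms are given above, only miR-667 passed. The difference was 0.65 in miR-379, 0.39 in miR-433, -0.34 in miR-370, -0.62 in miR-770 and 0.40 in miR-496 (exact permutation adjusted p = 0.0823, 0.0893, 0.111, 0.112 and 0.316).

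The arms of the precursors with the smallest p are printed side by side, since the seed in capitals, and so the messengers paired, differs between arms of each.
miR-361-5p: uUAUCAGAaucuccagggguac
miR-361-3p: cCCCCAGGugugauucugauucgu
miR-30a-5p: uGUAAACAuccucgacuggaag
miR-30a-3p: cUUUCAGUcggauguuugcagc
miR-221-5p: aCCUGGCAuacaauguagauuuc
miR-221-3p: aGCUACAUugucugcuggguuuc
The 3p arm had more GC than the 5p arm by 8.7 percentage points in miR-361, 4.5 in miR-30a and 8.7 in miR-221. Across 103 precursors with both sequences, the Spearman correlation of that difference with the shift in ratio was -0.04. Without naive replicate 6 the adjusted p of miR-3559 was 0.0553, and the number of precursors called ranged from 6 to 9 with 1 library left out.

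**Figure D5:**
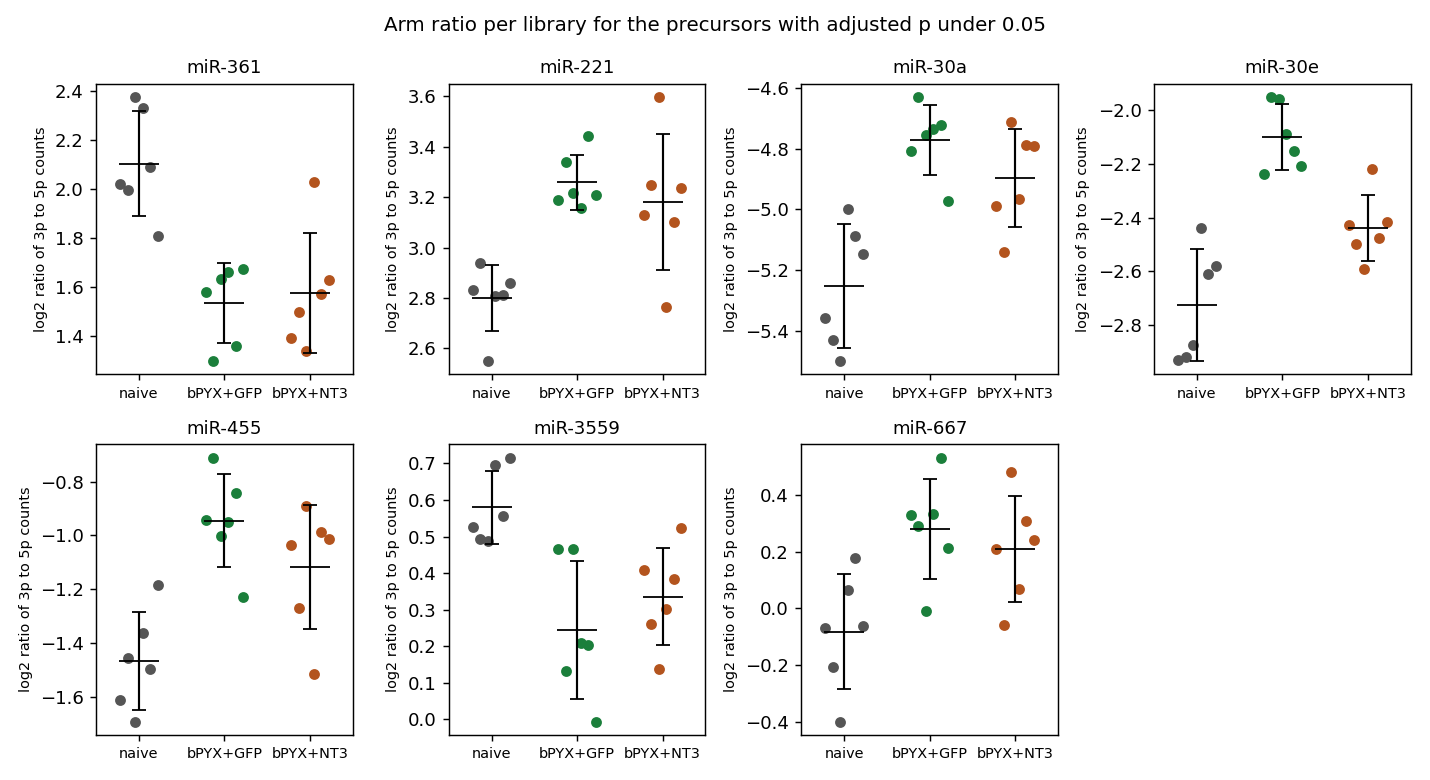
Log2 ratio of 3p to 5p counts (0.5 added to each) in every library for the 7 precursors with an adjusted p under 0.05. Points are libraries (6 per group), lines are means and bars SD; in miR-361 and miR-3559 the injured libraries sit low, and in the other 5 high, with bPYX+GFP and bPYX+NT3 on the same side of naive.

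Lists of miRNAs known in nerve injury and inflammation held no member called in the main fit, where 1.61% of all tested miRNAs were called and 18.8% had an unadjusted p under 0.05. Of 9 tested miRNAs that respond to axotomy, among them miR-21, miR-221, miR-222 and miR-132, at an unadjusted p under 0.05 miR-222-3p was higher (0.17) and miR-221-5p lower (-0.22). miR-21-5p, the member raised most widely in damaged tissue, was at 21599 ± 5492 CPM in naive (SD, n = 6) and 19885 ± 4938 CPM in injured rats (SD, n = 12). Of 5 tested miRNAs of inflammation, miR-146a-3p was higher (0.66) and both miR-146b arms lower at that threshold, and miR-155-5p was at 0.04. miR-146a-3p is a scarce strand, so its value rests on few counts. The median log2 ratio of 3p to 5p counts of miR-146a was -9.76 in naive and -9.39 in injured rats. That ratio did not differ (exact permutation adjusted p = 0.344). Medians of these lists were 0.04 each, against 0.02 over all tested miRNAs.

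Families held members on either side of 0, apart from miR-29 and miR-344, and their counts stand beside the 18.8% of all tested miRNAs with an unadjusted p under 0.05. In the let-7 family, with the seed GAGGUAG, 2 of 8 tested guide strands were lower at an unadjusted p under 0.05, let-7g-5p and let-7i-5p (-0.19), while let-7b-5p was at 0.07 and let-7c-5p at 0.02. Of 10 let-7 passenger strands 7 had a fold change above 0 and let-7i-3p was at 0.27 (edgeR adjusted p = 0.264). In the miR-30 family 2 of 9 strands were higher and 2 lower at that threshold. In the family of miR-148a, miR-148b and miR-152, 1 of 6 was higher, miR-148a-3p at 0.40, and 3 were lower, miR-148a-5p, miR-148b-5p and miR-152-5p. The pooled value for miR-148a-3p, the most abundant of the 6, does not show the vectors apart. Summed over the family, the level was 5623 to 7550 CPM in naive rats (median 6547). It was 7229 to 17216 CPM in bPYX+GFP (median 8281) and 5565 to 7644 CPM in bPYX+NT3 rats (median 6750). In the family of miR-15, miR-16, miR-195 and miR-497, the most abundant, miR-16-5p, was at 0.16, miR-195-5p at 0.22 and its partner miR-195-3p at -0.24. In the miR-181 family 1 of 6 tested strands, miR-181d-5p, was lower and none was higher, in the miR-29 family 1 of 2, miR-29b-1-5p at 0.32, was higher, and miR-344b-1-3p was the 1 of 7 listed miRNAs of its family that was tested. Strands of recent copies such as let-7a and let-7f, or miR-101a and miR-101b, differ by few bases, and their counts are uncertain where reads fit more than 1 place.

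Markers of the cells in a ganglion were examined beside these results, since in whole tissue fewer cells of a type and less RNA per cell cannot be told apart. No member of any marker list was called in the main fit, and counts at an unadjusted p under 0.05 stand beside 18.8% over all tested miRNAs. The sensory neuron miRNA miR-182 was called with library size only and with DESeq2. Of 4 tested sensory neuron miRNAs, the miR-183/96/182 cluster, 2 were higher at an unadjusted p under 0.05, miR-182 at 22966 ± 2504 CPM in naive (SD, n = 6) and 26257 ± 1770 CPM in injured rats (SD, n = 12), and miR-183-3p, while miR-96-5p was at 0.01 and miR-96-3p at -0.08. Summed over all 5 listed members, tested or not, the level was 23684 to 31046 CPM in naive and 25960 to 33150 CPM in injured rats. Sums given below likewise cover every listed member. Among 6 tested neuronal miRNAs 1 was higher at that threshold, miR-137-3p at 0.36, 4 had a fold change below 0, the median was -0.09, and the sums were 8542 to 11432 and 7283 to 10951 CPM. The most abundant of the 6, miR-128-3p, was at -0.16 ± 0.10 (log2 fold change, SE). The brain-enriched miR-124-3p and miR-9a-5p were below the detection filter.

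Of 4 tested glial miRNAs none passed an unadjusted p of 0.05. The level summed over the 9 listed was 7356 to 12566 CPM in naive and 5655 to 11161 CPM in injured rats, most of it miR-204-5p. miR-338-3p, a defining Schwann cell and oligodendrocyte miRNA, was listed at 0 in every library. The 10 blood and immune miRNAs were all tested and none passed, with sums of 994 to 2896 and 1262 to 3164 CPM. None passed among 6 of smooth muscle and pericytes (42190 to 69653 and 41629 to 60067 CPM), 3 of skeletal muscle (870 to 1125 and 732 to 1117 CPM), 1 of endothelium (21026 to 29100 and 19521 to 28526 CPM) or 4 of epithelium (76.4 to 110.4 and 79.6 to 190.8 CPM). The most abundant members of these lists were miR-143-3p at 0.00, miR-499-5p at -0.17, miR-126a-3p at -0.09 and miR-205 at 0.23, and of the blood and immune list miR-150-5p at 0.08 (log2 fold change; edgeR adjusted p of at least 0.317). miR-199a-5p, at -0.21, was the 1 of 3 fibroblast miRNAs and miR-455-5p the 1 of 4 cartilage miRNAs that were lower at an unadjusted p under 0.05. Fibroblast sums were 1627 to 2459 and 1387 to 1870 CPM, and cartilage sums 4095 to 4952 and 3642 to 5746 CPM. The part of cell composition in the called changes was not tested.

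Depth differed by less than the spread between rats. Counts given to miRNAs ran from 3.88 to 6.92 M per library and averaged 4.77 ± 0.423 M in naive (SD, n = 6) and 4.67 ± 0.770 M in injured rats (SD, n = 12; two-sided exact permutation p = 0.812). Of 5 shares of reads compared with that total, 1 differed in mean. Reads that overlapped more than 1 miRNA feature, and so were counted for none, were 3.03 ± 0.233% of entries in naive (SD, n = 6) and 3.37 ± 0.175% in injured rats (SD, n = 12), a difference of 0.338 percentage points (exact permutation adjusted p = 0.00905 over 6 measures). The adjusted p was 0.0572 without naive replicate 2 and 0.122 for the difference of medians, which was 0.215 percentage points. The counts do not say which miRNAs these reads came from, and their part in the changes above was not tested.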

How the data were processed

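Small RNA libraries of 18 rats were analysed. Per the labels and the study's methods, adapters were trimmed, reads were aligned with Bowtie2 to Rnor_5.0 and HTSeq gave the values, and the submitters' processing notes name bcl2fastq 1.8.4. Versions of the other tools and of the miRNA annotation are not given in the sources used here. The values deposited by the authors were raw read counts per mature miRNA, not normalised. The 5 HTSeq totals of reads given to no miRNA (65.1% of entries on average) stayed out of library sizes and tests. Bowtie2 gives low alignment quality to a read that fits several places, so miRNAs with near-identical copies may be undercounted or listed at 0. Within each group every pair of libraries differed (chi-square over degrees of freedom 39.6 or more), so none was taken for a copy. The study set aside 1 outlier rat that the labels do not identify, and all rats were kept here.

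From the counts, injured and naive libraries were compared with edgeR 4.0.16 in R 4.3.3 (TMM scaling, quasi-likelihood F test, 1 factor, filter of more than 10 counts in at least 6 libraries), with Benjamini-Hochberg adjustment over 373 miRNAs and a threshold of 0.05. SE values come from the F statistic. The vector groups were compared in 1 fit with 3 groups that shared their estimate of spread. Read shares and arm ratios, log2 of 3p over 5p counts with 0.5 added to each, were tested by two-sided exact permutation over all assignments of the rats (smallest possible p 5.39e-05). The scripts were tested on simulated data. Positions and mature sequences are those of RefSeq on GRCr8, which held 350 of the 373 miRNAs by name and is not the build of the counts.

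The text names the 24 miRNAs of smallest p, the other arm of each where tested, list members that were called, and the most abundant tested member of each list not otherwise named. Others were named after their values were seen. The members, lists and tests were chosen with earlier results of these data known. Alternatives covered scaling (median of ratios, or library size only), the filter (none, or over 100 counts), the test (likelihood ratio in edgeR, Wald in DESeq2 1.42.0, robust prior), the design (average of the vector groups, or replicate number as a block), medians in place of means for read shares, and each library left out in turn. The arm ratios, with a pseudocount of 5 as their alternative, were added after the data had been seen. Each group member is a separate rat. PCR copies are not independent molecules, and the spread between rats, not counting error, sets the errors given.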

Additional observations from a re-analysis of the deposited data

Results flagged for a closer look

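In groups of 6 libraries, 5 values stood apart from the rest of their group by Dixon's test, of 90 groups examined over 30 measures, and chance alone sets apart about 1 group in 20. miR-363-5p was at 8.52 CPM in naive replicate 3, the next naive library being at 5.59 CPM, and miR-455-5p was at 632 CPM in the same rat, the next being at 493.5 CPM. miR-152-5p was at 44.2 CPM in bPYX+GFP replicate 6 against 34.7 CPM in the next library of that group. The miRNA counts of bPYX+GFP replicate 3, at 6.92 M, exceeded the next library's 4.66 M. The share of reads aligned outside miRNAs in bPYX+NT3 replicate 4, at 2.49%, lay below the next value of 3.07%. Among values that enter no comparison of miRNAs, the share of ambiguous reads was 0.338 percentage points higher in injured than in naive rats.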

How the results depend on the processing

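Of the 6 called miRNAs, all 6 were called by each of the scaling, filter and test settings tried, except that only miR-361-3p and miR-381-3p passed with no detection filter (2 called, 0 higher), where 572 miRNAs were tested. DESeq2 called 17, of which 7 were higher and 10 lower, while the likelihood ratio test and the average of the vector groups each gave 5 lower. The labels do not say that replicate numbers pair the rats. Deviations of same-numbered libraries correlated between -0.384 and 0.371. Differently numbered libraries are not set beside them, so these values cannot show whether the numbers pair the rats. With the replicate number as a block 9 were called, 6 of them lower, among them 5 of the 6 and not miR-30e-3p. For bPYX+NT3 against bPYX+GFP, the likelihood ratio test called 1 and DESeq2 4, and the number at an unadjusted p under 0.05 was 25 to 60 with 1 library left out, the lowest for replicate 3 or 5 and the highest for replicate 4 of bPYX+NT3. miR-676 passed under 6 other settings. Size factors by median of ratios left 2 miRNAs without overlap. With 1 library left out the calls were 0 to 9, with 0 to 5 higher and 0 to 6 lower, and 1 to 3 miRNAs did not overlap. Library size alone moved the median of all miRNAs to 0.06 and put miR-370-5p at 0.018 (log2). The cause of these changes was not tested.

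Some differences that were not called changed sign with 1 library left out. On the log2 scale these were miR-496-5p (-0.050 to 0.21), miR-370-5p (-0.080 to 0.040), miR-379-5p (-0.060 to 0.049), miR-770-3p (-0.055 to 0.077), miR-125a-3p (-0.062 to 0.070), miR-143-3p (-0.052 to 0.10), miR-150-5p (-0.039 to 0.33), miR-21-5p (-0.21 to 0.0097) and miR-741-3p (-4.95 to 1.51). In percentage points, the share counted for a miRNA ranged from -0.545 to 0.275, that aligned outside miRNAs from -0.0326 to 0.159 and that of low alignment quality from -0.399 to 0.412. Taken as differences of medians they were 0.267, -0.0764 and -0.797, and the share of ambiguous reads was 0.215 (adjusted p = 0.122). Adding 5 in place of 0.5 to the arm counts left 7 precursors called.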
